A study of Bos taurus with 9 samples.

Results

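Articular chondrocytes and bone marrow mesenchymal stem cells (MSCs) of the same calves were compared after the same 28 days of culture in agarose, to see what still set the cell sources apart. The 6 arrays titled as chondrocytes at day 28 or MSCs at day 28 were taken, of 9 in the series, 3 per group and 1 per donor, and were compared over all probe sets that are not controls. The donors were 3 calves aged 3 to 6 months. Both groups were cast in agarose, a hydrogel that keeps cells rounded and apart, and kept in chemically defined medium with 10 ng/mL TGF-beta3, so that the growth factor was shared by both groups. With no group kept without it, a different response of the cell sources to TGF-beta3 cannot be told apart from other differences between them. The chondrocytes of donors 1 and 2 were cast directly after isolation per their labels, and the label of donor 3 gives isolation only. The MSCs are described as marrow-derived and donor-matched, with no label on passage. The other 3 arrays were MSCs of the same donors harvested right after casting (day 0), and are given as the starting level of the MSCs.

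Chondrocytes hold the matrix of articular cartilage, whose fibrils of type II, IX and XI collagen enclose aggrecan bound to hyaluronan. Cells near the joint surface also secrete lubricin, the product of PRG4, and in growing joints part of the cells still divide. Marrow MSCs are adherent stromal cells that form cartilage matrix under TGF-beta, and in the body a marrow-derived or growth plate cartilage can go on to hypertrophy, with COL10A1, and to mineral.

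Values are the deposited log2 levels of probe sets. A gene is given by that of its probe sets with the highest mean on the 9 arrays, differences are chondrocytes minus MSCs at day 28 with the standard error of the limma fit, n = 3 arrays per group throughout, and a gene is called higher or lower in chondrocytes where its Benjamini-Hochberg adjusted p over 24016 probe sets is under 0.05. On the day 28 arrays the 5th percentile of levels was 1.63, the 25th 2.52, the median 5.01 and the 95th 10.39, so that levels near 2 lie at the low end of the scale. No detection calls were used, so that a level there is not shown to be above background, and differences against it are given as measured, with no fold for a single gene. Hybridisation controls averaged 10.01 and 9.98 on the arrays of donor 3 at day 28 and 11.40 to 11.82 on the other 7, 1 low array in each group, and the group means of these controls were 11.16 and 11.17. The 3′ minus 5′ signal of 6 control transcripts was 1.81 ± 0.19 (SD) in chondrocytes and 1.81 ± 0.20 in MSCs (2-sided exact permutation p = 1, the smallest possible being 0.1). Across probe sets, arrays correlated from 0.978 to 0.990 within a group and from 0.959 to 0.972 between the groups. Each named gene was also refitted 10 times, without each day 28 array, without each donor, and without the 2 arrays with low controls, and these are called leave-out fits below. With 3 arrays a side, precision is limited throughout.

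Of 9155 genes, 764 were higher in chondrocytes (8.35%) and 440 were lower (4.81%), with a median difference of -0.02. Counts of called list members below are to be set beside these shares. The larger differences lay on the chondrocyte side: 99 genes were higher by at least 8-fold and 7 were lower by as much. Over probe sets, 1506 were higher and 976 lower of 24016. All 2482 had the same sign in the 3 donors, but choosing them by p on these same arrays favours that, so it is no replication. The split moved to 1344 and 1359 when arrays were centred on their medians. It moved to 2195 and 574 when they were centred on ribosomal protein genes, which shifted the median by 0.17. In 2927 genes (32.0%) the 3 chondrocyte arrays did not overlap the 3 MSC arrays. Calls were made on these same arrays, so a lack of overlap stated below for a called gene is no further support. Where a gene had more than 1 probe set, calls could differ by probe set: in 131 of 2913 such genes another probe set was called while the one of highest mean was not, and in 2 the calls were opposite.

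**Figure D1:**
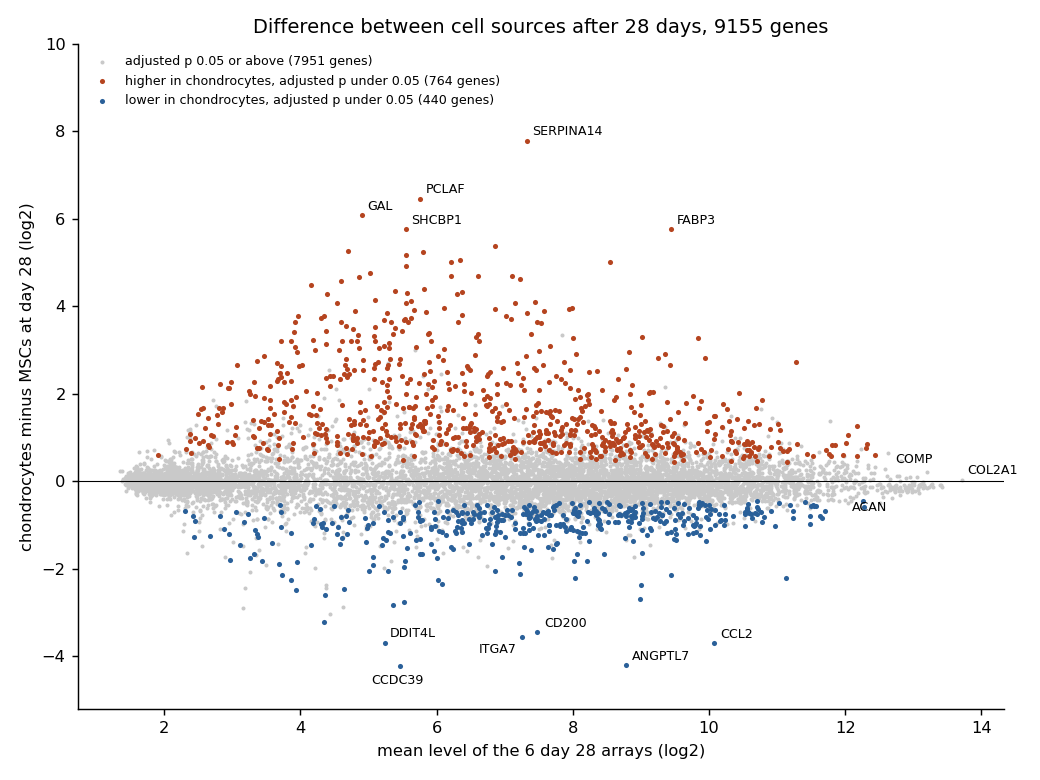
Difference between chondrocytes and MSCs at day 28 (log2, vertical axis) against the mean level of the 6 day 28 arrays (log2, horizontal axis) for 9155 genes, 1 point per gene, red where higher and blue where lower in chondrocytes at an adjusted p under 0.05. The points reach 7.79 upward (SERPINA14) and -4.22 downward (CCDC39), while COL2A1, ACAN and COMP lie near 0 at the right.

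Most structural genes of cartilage were not called, several of them at the top of the scale. Of 14 cartilage matrix genes with a probe set, 2 were higher in chondrocytes, none was lower, 12 were not called, and the median difference was 0.01. COL2A1, the chain of type II collagen, read 13.63, 13.60 and 13.96 in chondrocytes of donors 1 to 3 and 13.68, 13.57 and 13.82 in MSCs, with 7.73 on average in day 0 MSCs. Each of these day 28 readings was the highest value on its array, so that an overlap at the top of the scale cannot show whether the groups differed. The 3 dimmer probe sets of COL2A1 differed by 0.39 to 0.54 and were not called. ACAN, the core protein of aggrecan, read 12.37, 12.51 and 12.28 against 12.70, 12.87 and 12.15, and COMP, which binds collagen fibrils, read 13.19, 13.24 and 12.88 against 13.18, 13.18 and 12.66. Both overlapped between the groups, COMP close below the top of the scale. HAPLN1, the link protein of aggrecan and hyaluronan, differed by -0.13 ± 0.16 (adjusted p = 0.692), COL11A2 by 0.13 ± 0.19 (0.761), COL9A1 by -0.31 ± 0.22 (0.443), CHAD, a leucine-rich matrix protein, by -0.19 ± 0.23 (0.701) and MIA, a small secreted cartilage protein, by -0.20 ± 0.17 (0.539). These p-values miss the threshold, which does not show equal levels. MATN1 stayed at the low end of the scale in both, from 2.42 to 2.90. All 4 of COL2A1, ACAN, COMP and HAPLN1 were above the day 0 mean of the MSCs by more than 4 on every day 28 array of either group, and so do not tell the labelled cell types apart.

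CNMD, which encodes chondromodulin, a cartilage protein that restrains the growth of vessels, had the largest difference on the list of 14 cartilage matrix genes. It read 9.86, 9.95 and 9.94 in chondrocytes and 6.99, 5.51 and 5.46 in MSCs. The chondrocyte arrays lay close together and above each MSC array, of which donor 1 was the highest, and the difference of 3.93 ± 0.35 (15.2-fold, adjusted p = 0.000214) was called in all 10 leave-out fits. HAPLN3, a relative of the link protein, read 9.18, 9.23 and 8.48 against 6.99, 7.02 and 5.66. Donor 3 was the lowest in either group, the groups did not overlap, and the difference was 2.41 ± 0.40 (adjusted p = 0.00542), not called without donor 1 (0.0638) or donor 2 (0.078). MGP and COL11A1 gave other results by their dimmer probe sets. MGP, an inhibitor of mineral deposition, differed by -0.15 ± 0.23 by its brightest probe set, at 13.03 to 13.38 on the 6 arrays, whereas its 3 dimmer ones were lower in chondrocytes by 1.45 ± 0.34 (adjusted p = 0.0257), 1.41 ± 0.25 (0.00789) and 1.57 ± 0.26 (0.00556). COL11A1 was at -0.13 ± 0.15 by its brightest set, and its 6 others ran from -0.84 to -1.09, of which 3 were called lower in chondrocytes.

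**Figure D2:**
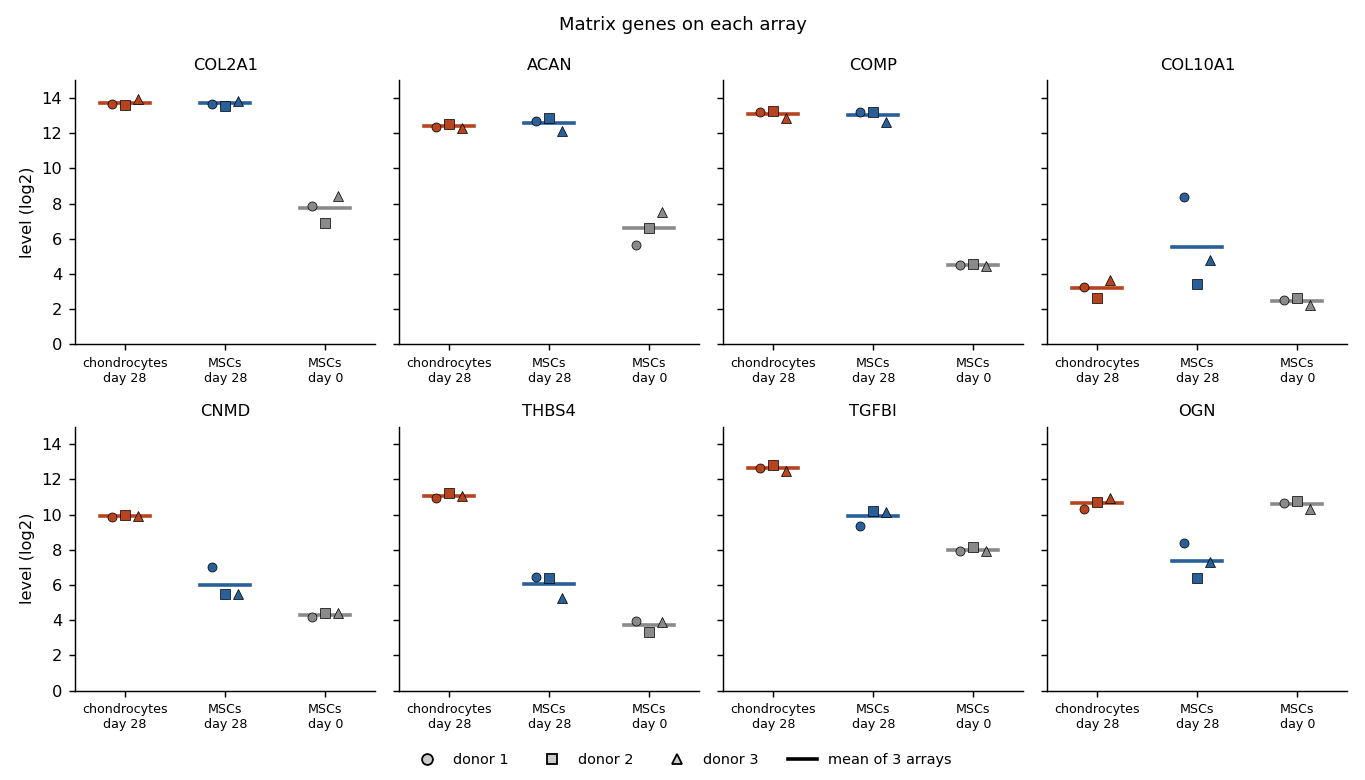
Level (log2) of 8 matrix genes on each array, by group, with a symbol per donor and a line at the mean of 3 arrays. COL2A1, ACAN and COMP overlap between the day 28 groups, MSCs of donor 1 stand above the other MSCs in COL10A1, and CNMD, THBS4, TGFBI and OGN are higher on each chondrocyte array than on any day 28 MSC array.

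PRG4, which encodes lubricin, the lubricant of the joint surface, has 4 probe sets that disagree. That of highest mean read 9.31, 9.43 and 10.05 in chondrocytes and 9.50, 9.73 and 9.59 in MSCs, with 9.31 on average at day 0, and did not differ by call (-0.01 ± 0.20, adjusted p = 0.985). The other 3 were at 10.06, 10.86 and 11.40 on average in chondrocytes and at 5.26, 3.51 and 3.52 in day 28 MSCs, close to 3.98, 3.54 and 2.53 at day 0. By array, the second of them read 10.81, 11.41 and 10.35 in chondrocytes against 3.76, 3.79 and 2.99 in MSCs. No chondrocyte array came near an MSC array in these 3 sets, and their differences were 4.80 ± 0.26 (adjusted p = 1.26e-05), 7.34 ± 0.29 (4.76e-06) and 7.88 ± 0.44 (1.73e-05). The mean of the 4 sets differed by 5.0. These PRG4 values were singled out after they had been seen, and which probe set follows the lubricin transcript was not tested.

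**Figure D3:**
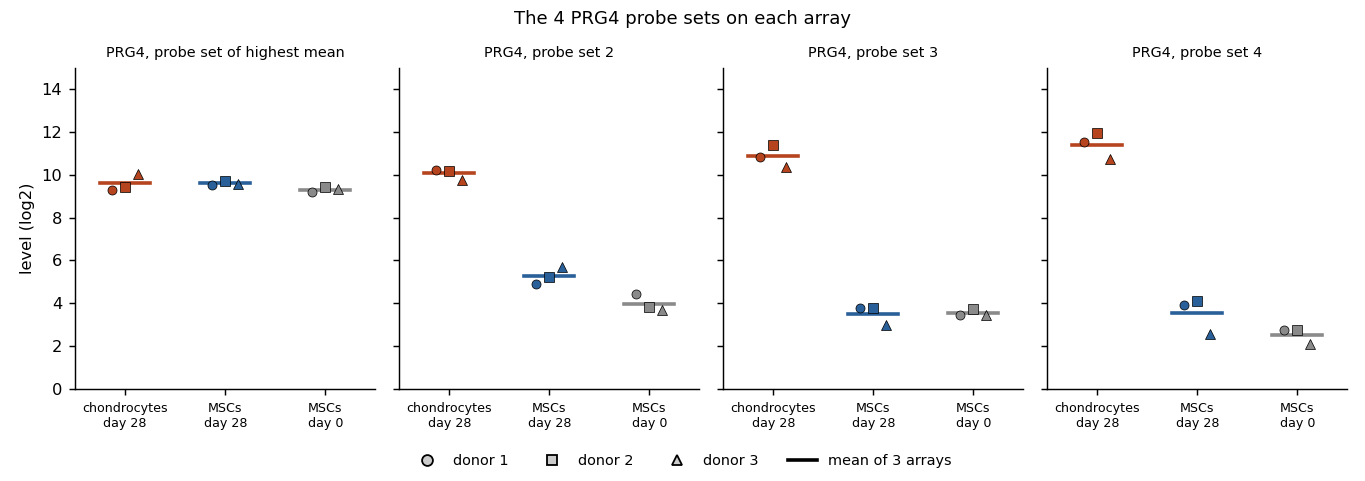
Level (log2) of the 4 PRG4 probe sets on each array, by group, with a symbol per donor and a line at the mean of 3 arrays. The probe set of highest mean is flat, with readings from 9.31 to 10.05 at day 28, and the other 3 lie between 9.77 and 11.97 in chondrocytes and between 2.55 and 5.68 in day 28 MSCs.

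Of 11 articular surface genes, 2 were called higher by the probe set of highest mean and none lower (median 0.52, or 0.08 without the 2 arrays with low controls). With the donor as a block 4 were higher and 1 was lower: CD55, a regulator of complement (1.86, adjusted p = 0.0156 with the block), and TNC, or tenascin C (1.04, 0.0363), joined the higher genes, and CLU, or clusterin (-0.97, 0.00576), was the lower one. THBS4, a thrombospondin of tendon and cartilage matrix, read 10.95, 11.21 and 11.03 in chondrocytes and 6.44, 6.42 and 5.25 in MSCs. MSCs of donor 3 were the lowest, the groups were far apart, and the difference of 5.02 ± 0.32 was 32.5-fold. VIT, a secreted protein of the matrix, was higher by 0.98 ± 0.16 at the low end of the scale, from 2.74 to 3.21 against 1.86 to 2.10, and its call ended without any of the donors (adjusted p up to 0.0623). FRZB, a secreted Wnt antagonist of articular cartilage, read 9.93, 9.90 and 9.68 against 9.98, 9.70 and 8.08 and overlapped (0.58 ± 0.45, adjusted p = 0.499). GDF5, a growth factor of the joint interzone, was at 2.24 to 2.68 on the 6 arrays.

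In the matrix lists given next, each gene called by its probe set of highest mean was higher in chondrocytes. MGP, on another list, was called lower by its dimmer probe sets, as given above. Of 16 matricellular genes 6 were higher (median 0.57), of 13 fibrous collagens and partners 4 (0.21) and of 15 elastic fibre genes 4 (0.37). Of 8 basement membrane genes 3 were higher (0.16). Of 10 small leucine-rich proteoglycans 1 was higher (0.21), a share near the 8.35% among all genes. None of these lists had a gene called lower, against 4.81% of all genes. The elastic fibre list had 1 gene called lower without the 2 arrays with low controls, and 1 without donor 3. In the leave-out fits the count of higher matricellular genes fell as low as 3 (without donor 3 or the chondrocytes of donor 2). The fibrous count fell to 2 (without donor 2), the elastic fibre count to 2 (without donor 1 or donor 2) and the basement membrane count to 0 (without donor 3). TGFBI, a collagen-binding protein induced by TGF-beta, read 12.66, 12.81 and 12.45 in chondrocytes and 9.37, 10.18 and 10.17 in MSCs. All chondrocyte arrays were higher, by 2.74 ± 0.23 (adjusted p = 0.000145). OGN, or osteoglycin, read 10.34, 10.71 and 10.95 against 8.38, 6.37 and 7.33 and was higher by 3.31 ± 0.43 (0.00153), with day 0 MSCs at 10.60, beside the chondrocytes. COL15A1, a collagen at basement membranes, read 11.46, 11.39 and 11.21 against 8.30, 8.56 and 8.70 and was higher by 2.83 ± 0.19 (3.86e-05), and its other probe set gave 2.80 ± 0.26. The proteoglycan versican, VCAN, was higher by 2.54 ± 0.25, from 8.45 to 9.31 against 5.88 to 6.53, and 2 further probe sets were called with it.

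Among elastic fibre genes, FBLN5, which guides elastin assembly, was higher by 3.09 ± 0.38 (adjusted p = 0.00119), with 8.71, 9.87 and 9.04 in chondrocytes and 6.52, 6.44 and 5.39 in MSCs. FBLN1 was higher by 1.92 ± 0.23 by either of its probe sets (the other 1.93 ± 0.32), and LOXL1, a crosslinking enzyme of elastin, by 1.99 ± 0.36, not called without donor 1 (0.111) or donor 2. SPON2, a matrix protein of the spondin family, was higher by 2.40 ± 0.20 (0.000159), with 6.51 to 6.94 against 4.13 to 4.39. COL6A1 and COL6A2, chains of the pericellular type VI collagen, were higher by 0.77 ± 0.16 and 1.28 ± 0.22. For COL6A1 the call ended in 6 of 10 leave-out fits (adjusted p up to 0.166 without donor 2) and was not made by its 2 other probe sets, and for COL6A2 it ended without donor 2 (0.0981) or donor 3. COL1A1, the main collagen of bone and tendon, was not called (0.47 ± 0.18, adjusted p = 0.143), with 12.79 to 13.33 against 12.31 to 12.83. Of 15 integrins and matrix receptors, 2 were higher and 2 lower. ITGA5, the fibronectin receptor chain, was higher by 1.67 ± 0.23, not called without donor 1 (0.0826) nor by its 2 dimmer probe sets (0.28 and -0.47). ITGA7, a laminin receptor chain, was lower by 3.56 ± 0.52, with 5.88, 4.37 and 6.17 against 9.60, 8.21 and 9.30, not called without donor 1 (0.0594), and ITGA3, another laminin receptor chain, was lower by 1.84 ± 0.25, not called without donor 2 (0.0636).

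By the probe set of highest mean, none of 16 genes of hypertrophy and mineralization was called by limma in either direction. At an unadjusted p under 0.05, 3 were higher and 2 lower, and the median was 0.06. With the donor as a block 1 was higher, ANKH, a transporter that limits mineral deposition (1.00 ± 0.35, adjusted p = 0.11, and 0.0302 with the block). MGP is also on this list, and its 3 dimmer probe sets were called lower in chondrocytes, as given above. The spread between donors was wide. COL10A1, the collagen of hypertrophic cartilage, read 3.26, 2.63 and 3.66 in chondrocytes and 8.40, 3.46 and 4.78 in MSCs, the MSCs of donor 1 being far above the rest, and the difference of -2.36 ± 1.00 missed the threshold (adjusted p = 0.187). ALPL, the alkaline phosphatase that frees phosphate for mineral, read 7.82, 6.69 and 8.94 against 10.70, 7.03 and 9.0 (-1.10 ± 0.84, 0.498). MSCs of donor 1 were again the highest, and within each donor the MSC array was above the chondrocyte array. PTH1R, the receptor of parathyroid hormone-related peptide, read 8.38, 7.72 and 8.25 against 10.24, 9.35 and 8.77, without overlap (-1.34 ± 0.49, adjusted p = 0.127), and was called lower only with the donor as a block on the day 28 arrays alone. MMP13 (-0.80 ± 0.76), SPP1 (0.07 ± 0.41), IHH (0.78 ± 0.33) and MEF2C (-0.28 ± 0.39) overlapped between the groups. PTHLH, the ligand of PTH1R, was higher in chondrocytes by 2.39 ± 0.41 (adjusted p = 0.00609), with 4.93, 6.92 and 5.78 against 3.24, 3.54 and 3.66, and was not called without donor 3 (0.0635). Of 9 osteoblast markers 0 were called by limma (1 in each direction at an unadjusted p under 0.05, median -0.12).

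Genes of dividing cells formed the group with the highest share of calls. Of 33 kinetochore, spindle and cytokinesis genes 25 were higher in chondrocytes (median 2.54), of 26 cyclins, kinases and drivers 17 (1.33), of 17 genes of chromosome condensation and mitotic exit 11 (1.72), of 39 DNA replication genes 21 (1.06) and of 23 nucleotide synthesis genes 9 (0.27). No gene of these 5 lists was lower (1 of the cyclin list with the donor as a block), against 4.81% of all genes. In bulk RNA, fewer dividing cells and less of these transcripts per cell cannot be told apart. The mean level of the kinetochore list was 7.94, 8.20 and 8.19 in chondrocytes and 5.0, 5.59 and 6.13 in day 28 MSCs, and its median level was 8.51 and 5.40, with 7.06 in day 0 MSCs. Day 28 MSCs were below their own starting level and below the chondrocytes, and among them donor 1 was the lowest and donor 3 the highest. The counts were 25 to 27, 17 to 20, 11 to 13 and 21 to 24 in the first 4 of these lists under the 3 other scalings between arrays. They fell most without a donor: to 16 for the kinetochore list and 8 for the cyclins without donor 2, and to 12 for replication genes without donor 1.

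PCLAF, a partner of the replication clamp, read 8.84, 9.13 and 9.01 in chondrocytes and 2.63, 2.37 and 2.60 in MSCs, with 8.21 on average at day 0. The MSC levels lay at the low end of the scale on all 3 arrays, and the difference was 6.46 ± 0.19 (adjusted p = 1.07e-06). RRM2, which makes deoxynucleotides, read 9.53, 9.62 and 9.50 against 3.33, 3.90 and 5.26 (5.39 ± 0.43, 0.000107). CCNB2 and CCNB1, cyclins of mitotic entry, were higher by 5.24 ± 0.42 and 5.01 ± 0.29, and their kinase CDK1 by 4.40 ± 0.34, with 8.26, 7.75 and 8.03 against 2.73, 3.80 and 4.31. CCNA2, the cyclin of S phase and G2, was higher by 4.07 ± 0.32 and CDC20, which starts anaphase, by 3.68 ± 0.37. The spindle genes SHCBP1 (5.77 ± 0.23), SPAG5 (4.70 ± 0.55), CDCA8 (4.70 ± 0.48), AURKB (4.67 ± 0.27), CENPF (4.62 ± 0.36) and KIF4A (3.51 ± 0.24) were higher on each chondrocyte array than on any day 28 MSC array. Among other replication genes, CDC6, which loads the helicase, was higher by 3.30 ± 0.21, MCM4, a helicase subunit, by 2.37 ± 0.14 and POLE2, a polymerase subunit, by 2.26 ± 0.16. UHRF1, which keeps DNA methylation through division, was higher by 5.05 ± 0.37 and LMNB1, a lamin of the nuclear envelope, by 4.15 ± 0.36. Among chromatin genes 6 of 21 were higher, with the methyltransferases EZH2 (1.86 ± 0.18) and SUV39H1 (1.64 ± 0.18). Of 11 DNA repair genes BRCA1 alone was called (2 with the donor as a block), at 1.34 ± 0.23, and its call ended without donor 1 or donor 2 (0.0981). All of these genes other than BRCA1 kept their call in the 10 leave-out fits.

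Part of the list of cell cycle inhibitors and p53 targets went the other way. The cyclin kinase inhibitors CDKN1C, CDKN2C and CDKN2B did not: they were among 6 members with a difference above 0, and were not called. Of 19 cell cycle inhibitors and p53 targets 5 were lower in chondrocytes and 0 higher (3 higher at an unadjusted p under 0.05, and 2 called higher with the donor as a block), with a median of -0.33, and the lower calls numbered 5 to 7 under other scalings and 2 without donor 1. SESN2, a stress-induced inhibitor of growth signalling, read 5.76, 6.05 and 5.71 in chondrocytes and 8.55, 7.68 and 7.41 in MSCs (-2.04 ± 0.26, adjusted p = 0.00154). The death receptor FAS read 4.60, 4.41 and 4.62 against 6.11, 6.42 and 6.98 (-1.96 ± 0.26, 0.00172). Neither overlapped, and both were called in each leave-out fit. MDM2, the ligase that limits p53, was lower by 1.09 ± 0.19, CCNG1 by 0.79 ± 0.13 and CDKN1A, the p21 inhibitor of cyclin kinases, by 0.83 ± 0.17. The calls of MDM2 and CCNG1 ended without donor 1 or donor 2 (up to 0.107 and 0.114), and that of CDKN1A in 5 leave-out fits (up to 0.201 without donor 1).

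**Figure D4:**
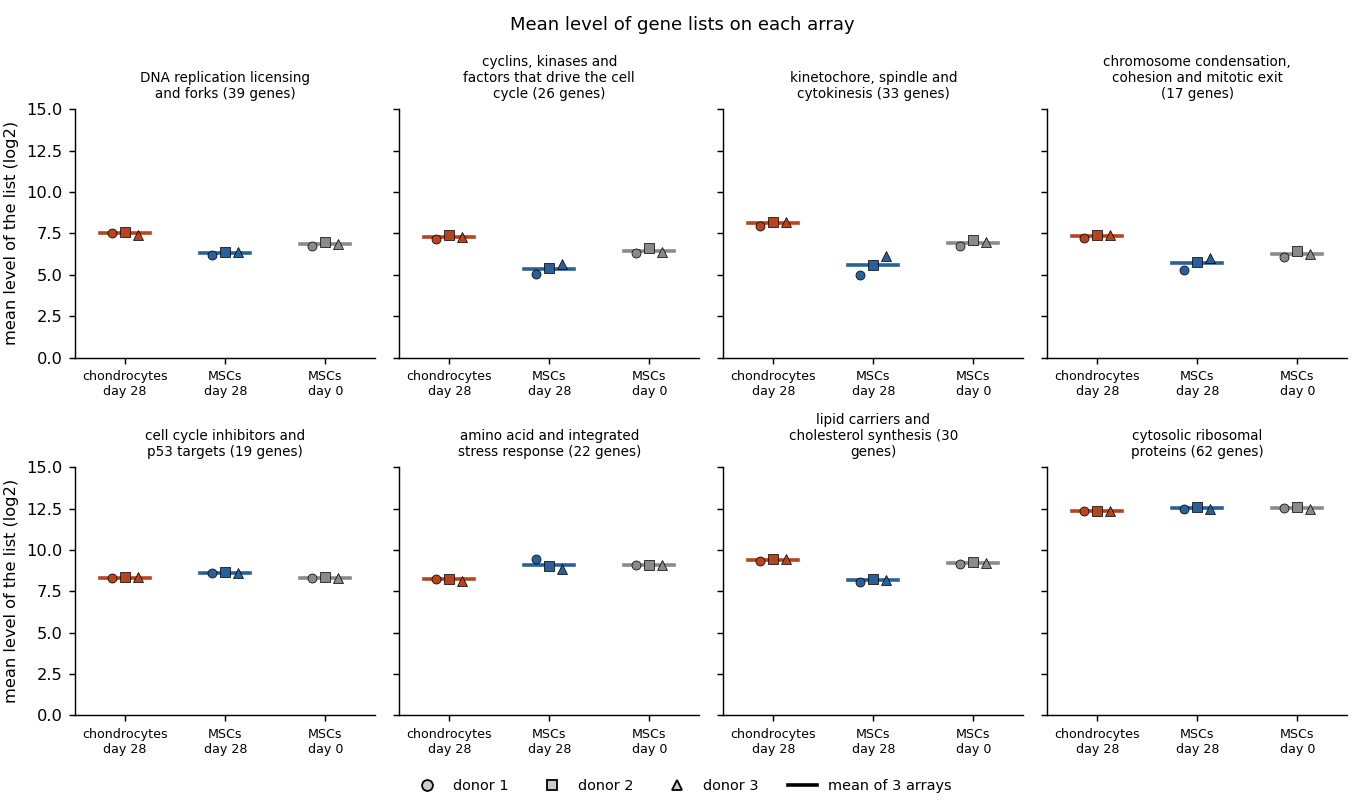
Mean level (log2) of the members of 8 gene lists on each array, by group, with a symbol per donor and a line at the mean of 3 arrays. In the 4 cell division lists and the lipid list the 3 chondrocyte arrays lie above the 3 day 28 MSC arrays, in the stress response and p53 lists they lie below them, and ribosomal proteins differ by a median of -0.14, or 0.03 with arrays centred on them.

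Lipid genes were the next group. Of 30 genes of lipid carriers and cholesterol synthesis 16 were higher in chondrocytes and 1 was lower (median 1.07), and 16 to 17 were higher under the other scalings and 11 without donor 1. The mean level of the list was 9.32, 9.44 and 9.43 in chondrocytes and 8.09, 8.24 and 8.20 in day 28 MSCs, without overlap. FABP3, a fatty acid carrier of muscle, read 12.35, 12.33 and 12.29 against 6.34, 6.17 and 7.17 (5.76 ± 0.26, 54.4-fold, adjusted p = 5.59e-06), with day 0 MSCs at 11.10. Chondrocytes and day 0 MSCs were thus near the top of the scale, and day 28 MSCs were not. The sterol enzymes HMGCS1 (2.65 ± 0.22), FDPS (1.96 ± 0.15) and LSS (1.67 ± 0.13) followed, each with day 0 MSCs beside the chondrocytes: HMGCS1 read 10.82, 10.63 and 10.79 in chondrocytes, 8.27, 8.46 and 7.57 in day 28 MSCs and 10.77 on average at day 0. SQLE, which acts between FDPS and LSS, was higher by 1.76 ± 0.15 and INSIG1, the sterol sensor of the pathway, by 1.49 ± 0.18. The retinoic acid carrier CRABP2 was higher by 2.92 ± 0.30, with 11.32, 10.63 and 10.48 against 7.48, 7.68 and 8.50. VLDLR, a lipoprotein receptor, was the gene called lower (-1.0), a call that ended without donor 1 (0.0678) or donor 2. Of 18 adipocyte markers 2 were higher, FASN and SCD, which make fatty acids, and 2 lower, CD36 and CIDEC, and the calls of all 4 ended in at least 3 of the leave-out fits. With the donor as a block 4 were lower.

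Part of the amino acid and stress response genes were lower in chondrocytes. Of 22 such genes, which act with the factor ATF4 when amino acids are short or protein folding is strained, 8 were lower and 0 higher by limma (0 higher at an unadjusted p under 0.05, 16 lower), with a median of -0.63. Lower calls numbered 4 with arrays centred on ribosomal protein genes, 11 with arrays centred on their medians, and 1 and 2 without donors 1 and 2. The list averaged 8.27, 8.26 and 8.15 in chondrocytes and 9.45, 9.02 and 8.87 in MSCs, with donor 1 the highest MSC array. DDIT4L, an inhibitor of mTOR signalling, read 3.23, 3.42 and 3.54 against 7.04, 8.06 and 6.15 (-3.69 ± 0.55, adjusted p = 0.00322, and 0.0832 without donor 1). NUPR1, a stress-induced regulator of transcription, read 10.09, 9.91 and 10.08 against 12.46, 12.40 and 11.88 (-2.22 ± 0.20, 0.000207), and was called in each leave-out fit. DDIT3, also called CHOP, was lower by 1.36 ± 0.22 and SARS1, a transfer RNA synthetase, by 0.96 ± 0.18, and both calls ended without donor 1 or donor 2 (up to 0.0954 and 0.0988), that of SARS1 also without donor 3. Among antioxidants and metallothioneins 4 of 34 were higher and 3 lower, among them the glutathione peroxidase GPX1 at 1.34 ± 0.17 and the sulfiredoxin SRXN1 at -1.81 ± 0.27, with adjusted p-values of 0.0603 without donor 1 and 0.0777 without donor 2.

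Proteases and their inhibitors were higher in chondrocytes in 15 of 38 cases and lower in 2 (median 0.70), or in 10 and 1 without the 2 arrays with low controls, and in 7 without donor 1. PLAU, or urokinase, which activates plasminogen, read 9.04, 9.87 and 9.66 in chondrocytes and 4.66, 5.95 and 6.26 in MSCs (3.90 ± 0.38, 14.9-fold, adjusted p = 0.000348). MMP19 read 5.13, 5.90 and 6.79 against 2.72, 2.81 and 2.86 (3.14 ± 0.34, 0.000653). In both, no chondrocyte array overlapped an MSC array. TIMP1, an inhibitor of metalloproteinases, was higher by 1.31 ± 0.15 and the matrix protease HTRA1 by 1.05 ± 0.15 (0.0694 without donor 1), so that enzymes and an inhibitor were among the calls. MMP3, or stromelysin, was higher by 2.73 ± 0.47 (0.0613 without donor 1), and ADAMTS4, an aggrecanase, by 2.59 ± 0.70, a call that ended in 9 of 10 leave-out fits (up to 0.277 without donor 2). ADAMTS5, the other main aggrecanase, was not called (-0.52 ± 0.36). CTSS, a cathepsin, was lower by 1.12 ± 0.16, not called without donor 1 (0.0772).

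Of 25 genes of glycosaminoglycan synthesis 8 were higher and 1 lower (median 0.31), with 7 to 11 higher under other scalings and 2 without donor 2. UGDH, which makes the UDP-glucuronate used for hyaluronan and chondroitin, read 11.15, 11.12 and 11.01 in chondrocytes and 8.96, 9.69 and 9.63 in MSCs (1.66 ± 0.19, adjusted p = 0.000908). It did not overlap and was called in each leave-out fit. The sulfatase SULF2 was higher by 1.68 ± 0.26, not called without donor 1 (0.0541) or donor 2, the uronyl sulfotransferase UST by 1.36 ± 0.19, and BPNT2, a phosphatase needed for sulfation, by 1.05 ± 0.14 (0.0592 without donor 2). Of 25 genes of collagen processing, 3 were higher, led by the prolyl hydroxylase subunit P4HA3 (1.37 ± 0.19, 0.0585 without donor 1), and 1 was lower, PCOLCE2, an enhancer of procollagen cleavage, at -2.15 ± 0.45, a call that ended in 4 leave-out fits (up to 0.144 without donor 1).

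In signalling, the BMP list held the most calls, 5 of 17 (29.4%, against 8.35% of all genes). All 5 were higher in chondrocytes (median 0.20), and with the donor as a block 1 gene was lower. The ligand BMP5 read 6.61, 6.92 and 6.69 in chondrocytes and 2.96, 2.41 and 3.18 in MSCs (3.89 ± 0.28, adjusted p = 6.34e-05). The extracellular regulator BMPER read 5.71, 5.68 and 4.98 against 1.75, 3.20 and 1.82 (3.20 ± 0.38, 0.000976), with a second probe set near 2 that was not called (0.30). In both genes the MSCs stayed near their day 0 levels of 2.94 and 2.36. The response gene ID1 was higher by 2.51 ± 0.50 by one probe set and by 2.43 ± 0.39 by the other, with 8.12, 8.79 and 7.22 against 6.22, 5.81 and 4.56, and the call ended without donor 1, without donor 2 (0.135) or without the chondrocytes of donor 2. ID3 was higher by 1.89 ± 0.52, called in 1 of 10 leave-out fits (up to 0.289 without donor 2), and BAMBI, a decoy receptor, by 1.49 ± 0.26 (0.0988 without donor 1).

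Of 16 genes of TGF-beta signalling 2 were higher (12.5%, against 8.35% of all genes). ACVRL1, a type I receptor, was higher by 2.27 ± 0.25, with 5.08, 4.28 and 3.99 against 2.33, 2.05 and 2.17. The ligand TGFB3, the factor that was also in the medium, was higher by 1.39 ± 0.29. Its call ended in 4 leave-out fits (up to 0.219 without donor 1). Of 23 Wnt genes 3 were higher (13%, against 8.35% of all genes) and 0 lower. The lower count was 2 without the 2 arrays with low controls, without donor 3 or without the MSCs of donor 3. The higher genes were the nuclear factor TCF7 (2.41 ± 0.30, and 0.0563 without donor 2), the secreted antagonist DKK1 (2.00 ± 0.48) and the feedback gene AXIN2 (1.72 ± 0.19). AXIN2 was called in each of the leave-out fits. The call of DKK1 ended in 8 of them (up to 0.239 without donor 2). Of 7 chondrogenic regulators with a probe set NFIA (1.64 ± 0.22, and 0.0761 without donor 1) and NFATC1 (0.88 ± 0.18, called in 6 leave-out fits and up to 0.185 without donor 1) were higher, and WWP2, a ubiquitin ligase whose gene hosts a cartilage microRNA, overlapped at 12.35 to 12.55 against 12.10 to 12.58. SOX9 had no probe set with its name. None of 7 Notch genes was called by limma, with 2 lower at an unadjusted p under 0.05.

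Of 16 genes that mark position in the limb 3 were higher (18.8%), 1 was lower (6.25%) and 12 were not called (median -0.21). Among all genes the shares were 8.35% and 4.81%. The higher count was 1 without donor 1 or donor 2, and the lower count was 2 with the donor as a block. The related homeobox factors MEIS1 and MEIS2 went opposite ways: MEIS1 read 3.82, 4.65 and 4.47 in chondrocytes and 2.03, 2.17 and 2.86 in MSCs (1.96 ± 0.26, adjusted p = 0.00188, and 0.0661 without donor 2), and MEIS2 read 2.63, 3.08 and 2.52 against 6.44, 5.57 and 5.85 (-3.21 ± 0.26, 0.000134). Neither overlapped, and day 0 MSCs stood with day 28 MSCs in both, at 2.35 and 7.03. A dimmer MEIS2 probe set, at 2.37 in MSCs, was not called (-0.35 ± 0.18). HOXA4 was higher by 1.34 ± 0.24, with 9.16 to 9.27 against 7.65 to 8.30 (up to 0.145 without donor 1), and HOXD10 by 2.45 ± 0.67, a call held in 2 of 10 leave-out fits (up to 0.353 without donor 1). Outside that list, PAX6, a homeobox factor of eye and brain, was lower by 2.46 ± 0.44, with 3.40, 3.56 and 3.26 against 5.90, 5.01 and 6.69 (0.134 without donor 1), and 2 of its 3 other probe sets were called lower too. EYA2, a transcriptional coactivator, was lower by 2.21 ± 0.35, and its call ended without donor 1 (0.0956) or donor 2.

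Contractile genes were higher in chondrocytes in 10 of 26 cases and lower in 1 (median 0.57), in 8 to 14 under other scalings and in 2 without donor 1. ACTA2, smooth muscle actin, read 10.12, 11.02 and 9.76 in chondrocytes and 6.34, 7.61 and 8.08 in MSCs (2.96 ± 0.44, adjusted p = 0.00338, and 0.0664 without donor 2), with day 0 MSCs highest, at 12.33. TAGLN2 was higher by 1.67 ± 0.21 and the actin crosslinker FLNA by 1.59 ± 0.22, both not called without donor 1 (0.0589 and 0.0603). LMOD1, which nucleates actin in smooth muscle, went the other way, at 4.30, 4.29 and 3.99 against 5.91, 5.92 and 5.92 (-1.72 ± 0.15, 0.000151). Of 34 genes of glycolysis and oxygen response 9 were higher and 0 lower (median 0.37, no member lower at an unadjusted p under 0.05), led by the enzymes PFKL (1.46 ± 0.16) and HK1 (1.22 ± 0.17, and 0.068 without donor 2). This count was 4 without the 2 arrays with low controls and 2 without donor 1 or donor 2.

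Of 21 stromal cell markers, 4 were lower in chondrocytes (19%, against 4.81% of all genes), 2 were higher and 15 were not called (median 0.01). The higher share, 9.52%, was near the 8.35% among all genes. The lower calls numbered 4 under each other scaling and 1 without donor 1 or donor 2. CD200, an immune-regulating surface protein, read 6.08, 4.76 and 6.40 in chondrocytes and 9.71, 9.28 and 8.62 in MSCs (-3.45 ± 0.45, adjusted p = 0.00172), and was called in each leave-out fit. MCAM, an adhesion protein of perivascular stromal cells, read 2.85, 2.86 and 2.48 against 5.47, 4.35 and 4.06 (-1.90 ± 0.35), ALCAM 3.82, 3.75 and 4.05 against 5.16, 5.84 and 4.91 (-1.43 ± 0.27), and the tetraspanin CD9 was lower by 0.79 ± 0.16. The groups did not overlap in any of these. The same held for 11 of the 21 list members and for 32.0% of all genes. The calls of MCAM, ALCAM and CD9 ended without donor 1 or donor 2 (up to 0.0795, 0.129 and 0.135), that of CD9 also without donor 3 or the chondrocytes of donor 2. NT5E, the ectoenzyme CD73, was higher by 0.92 ± 0.20 and the filament gene NES by 0.87 ± 0.19, with calls in 4 and 3 leave-out fits and up to 0.2 and 0.231. THY1 (-0.38 ± 0.18), ENG (0.63 ± 0.20), PDGFRB (-0.37 ± 0.22) and CXCL12 (-0.87 ± 0.56), often used to define marrow stroma, were not called. LEPR, VCAM1 and NGFR were at the low end of the scale in both groups, from 1.54 to 3.05.

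Of 39 chemokines and inflammatory mediators 6 were higher (15.4%) and 3 lower (7.69%), with a median of 0.09. Among all genes the shares were 8.35% and 4.81%. Without the 2 arrays with low controls the counts of the list were 4 and 2. TNFAIP6, a hyaluronan-binding protein induced by inflammation, read 11.38, 12.05 and 10.98 in chondrocytes and 7.89, 7.95 and 8.77 in MSCs (3.27 ± 0.34, adjusted p = 0.00051), and its other probe set gave 3.64 ± 0.35. TLR2, a receptor of bacterial lipids, was higher by 2.68 ± 0.45 (0.0795 without donor 2). CCL2, which draws monocytes, read 7.93, 8.01 and 8.75 against 11.74, 11.88 and 12.15 (-3.70 ± 0.46, 0.00123, and 0.0532 without donor 1), and its dimmer probe set gave -4.73 ± 0.56. The cytokine IL18 was lower by 2.35 ± 0.42 and the complement factor C3 by 2.37 ± 0.44, and both lost their call without the 2 arrays with low controls (0.0605 and 0.0619) and without donor 1 (0.0936 and 0.117), IL18 also without donor 3. In complement the inhibitors CFI (2.24 ± 0.45) and SERPING1 (2.21 ± 0.43) were higher, with calls that ended without the chondrocytes of donor 2 or without a donor (up to 0.143 and 0.122). C3 read 7.63, 7.96 and 7.87 in chondrocytes and 9.85, 10.04 and 10.67 in MSCs, without overlap.

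Interferon-induced genes were not called: of 20, 0 passed in limma, 0 at an unadjusted p under 0.05, and 19 lay below 0 (median -0.71). The MSCs of donor 3 stood apart. The list averaged 4.64, 4.49 and 4.76 in chondrocytes and 4.81, 4.36 and 8.04 in MSCs, and without the MSC array of donor 3, which is also an array with low hybridisation controls, the median was -0.05. Without both arrays with low controls it was -0.07, and 1 gene was called higher. IFI44L read 1.80, 1.56 and 1.78 against 2.11, 2.26 and 9.46, RSAD2, an antiviral enzyme, 2.18, 2.30 and 3.04 against 2.63, 3.40 and 6.51, and MX2, an antiviral GTPase, 1.99, 2.16 and 1.67 against 2.18, 2.17 and 4.85. In each, the MSCs of donor 3 were the highest of the 6 arrays.

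Several of the largest differences were in genes of other classes. SERPINA14, a serpin known as uterine milk protein, read 11.68, 11.03 and 10.95 in chondrocytes and 3.80, 2.55 and 3.94 in MSCs, with 3.39 on average at day 0. It was the gene with the largest difference, 7.79 ± 0.35, and its other probe set gave 8.04 ± 0.25. SERPINA11, of the same family, read 8.85, 8.57 and 7.0 against 2.93, 2.96 and 3.03 (5.17 ± 0.40). GAL, the neuropeptide galanin, read 7.96, 9.02 and 6.88 against 1.89, 1.48 and 2.19 (6.09 ± 0.45, adjusted p = 7.34e-05), and CPE, an enzyme that trims peptide hormones, read 7.18, 6.60 and 6.87 against 2.41, 2.74 and 1.75 (4.58 ± 0.26). TKTL1, related to transketolase, was higher by 5.27 ± 0.24 and LRRC17, a secreted leucine-rich protein, by 4.92 ± 0.78 (0.0572 without donor 1). C8B, a chain of the complement attack complex, was higher by 4.76 ± 0.42 by 1 probe set and not called by the other, at 0.48 ± 0.20. In day 28 MSCs these genes read from 1.48 (GAL) to 3.94 (SERPINA14), below the median of the scale, and at day 0 they averaged from 1.88 (TKTL1) to 3.39 (SERPINA14).

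EDNRA, an endothelin receptor, and PGF, a relative of VEGF, were higher by 3.87 ± 0.47 and 3.64 ± 0.49 (PGF 0.0551 without donor 2), among 6 higher and 1 lower of 24 vascular regulators. The lower one was ANGPTL7, a secreted angiopoietin-like protein, with 6.84, 6.44 and 6.78 in chondrocytes and 11.42, 11.57 and 9.66 in day 28 MSCs, against 3.83 at day 0. Both groups were above the starting level of the MSCs, and the MSCs by more (-4.20 ± 0.44, 18.3-fold). The calcium-binding proteins S100A8 and S100A9 were higher by 3.55 ± 0.78 and 2.09 ± 0.38, the former called in 3 of 10 leave-out fits (up to 0.125 without donor 1) and the latter not without donor 2 or donor 3 (0.0695).

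On the side of the MSCs, CCDC39, a gene of motile cilia, read 3.31, 3.15 and 3.59 in chondrocytes and 8.80, 6.89 and 7.03 in MSCs (-4.22 ± 0.49, adjusted p = 0.000941), with 6.70 at day 0. It was the gene with the largest difference in that direction, while DNAAF11, an assembly factor of the same kind of cilium, was higher in chondrocytes by 2.57 ± 0.22, and of 37 cilium genes 3 were higher and 2 lower, or 5 and 3 with the donor as a block. PLEKHB1, a membrane-binding protein, read 3.77, 4.52 and 4.13 against 6.95, 6.68 and 7.05 (-2.75 ± 0.20, 6.40e-05), and SHISAL2B 7.41, 7.44 and 8.09 against 10.61, 10.0 and 10.37 (-2.68 ± 0.36, and 0.0528 without donor 2), with day 0 MSCs at 3.64 and 3.22. FBXO32, a ubiquitin ligase of muscle wasting (-2.59 ± 0.61), PLS1, an actin bundler (-2.82 ± 0.60), and DPEP1, a dipeptidase (-2.48 ± 0.36), lost their calls in 6, 5 and 2 leave-out fits (up to 0.25, 0.163 and 0.0883). Of the 20 genes with the largest lower values 6 kept their call in all 10 leave-out fits and 13 lost it without donor 1, against 19 and 1 of the 20 largest higher ones. All 40 kept their sign. Over all probe sets, lower calls fell from 976 to 148 without donor 1, and higher calls from 1506 to 599. That fit also left out the day 0 array of the donor, so a lost call there does not show that the difference rests on donor 1.

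Levels of markers of other cell types differed by list. Median levels in chondrocytes and day 28 MSCs were 2.24 and 2.25 for blood cell markers and 2.60 and 2.51 for endothelial markers. Skeletal muscle markers were at 2.89 and 3.18, synovial markers at 3.39 and 3.04, and nerve and glia markers at 3.48 and 3.06. Tendon markers were far above these, at 9.47 and 7.22. Of 20 blood cell markers 1 was higher, CSF1R, the receptor of macrophage growth factor (8.17, 7.69 and 6.97 against 6.44, 5.99 and 5.60, a difference of 1.60 ± 0.38, up to 0.191 without donor 2), and 1 lower, CTSS. The list averaged 3.38 to 3.40 in chondrocytes and 3.18 to 3.27 in MSCs. CD14 was at 7.02, 7.60 and 7.25 against 3.55, 5.62 and 5.33 and missed the threshold (2.45 ± 0.69, 0.0551, and 0.0366 with the donor as a block), whereas its dimmer probe set was called (1.47 ± 0.37). Of 13 endothelial markers TIE1 was higher, from 2.44 to 3.36 against 2.08 to 2.13 (up to 0.273 without donor 2), and the list averaged 2.74 to 2.98 and 2.69 to 2.87. Of 9 nerve and glia markers GFAP, a filament of glia that chondrocytes can express, read 5.68, 6.42 and 6.10 against 3.18, 2.49 and 3.50 (3.01 ± 0.27), its dimmer probe set was not called (0.17 ± 0.14), and NCAM1 was higher by 1.82 ± 0.39 (0.206 without donor 1). Of 7 tendon markers THBS4 was higher, of 8 synovial markers UGDH (2 in either list, and 2 blood cell markers, with the donor as a block), and of 15 skeletal muscle markers 2 were higher and 3 lower, the troponins TNNI2 and TNNT3 against MYL11, CKM and MB. The part of such cells in the results above was not tested.

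**Figure D5:**
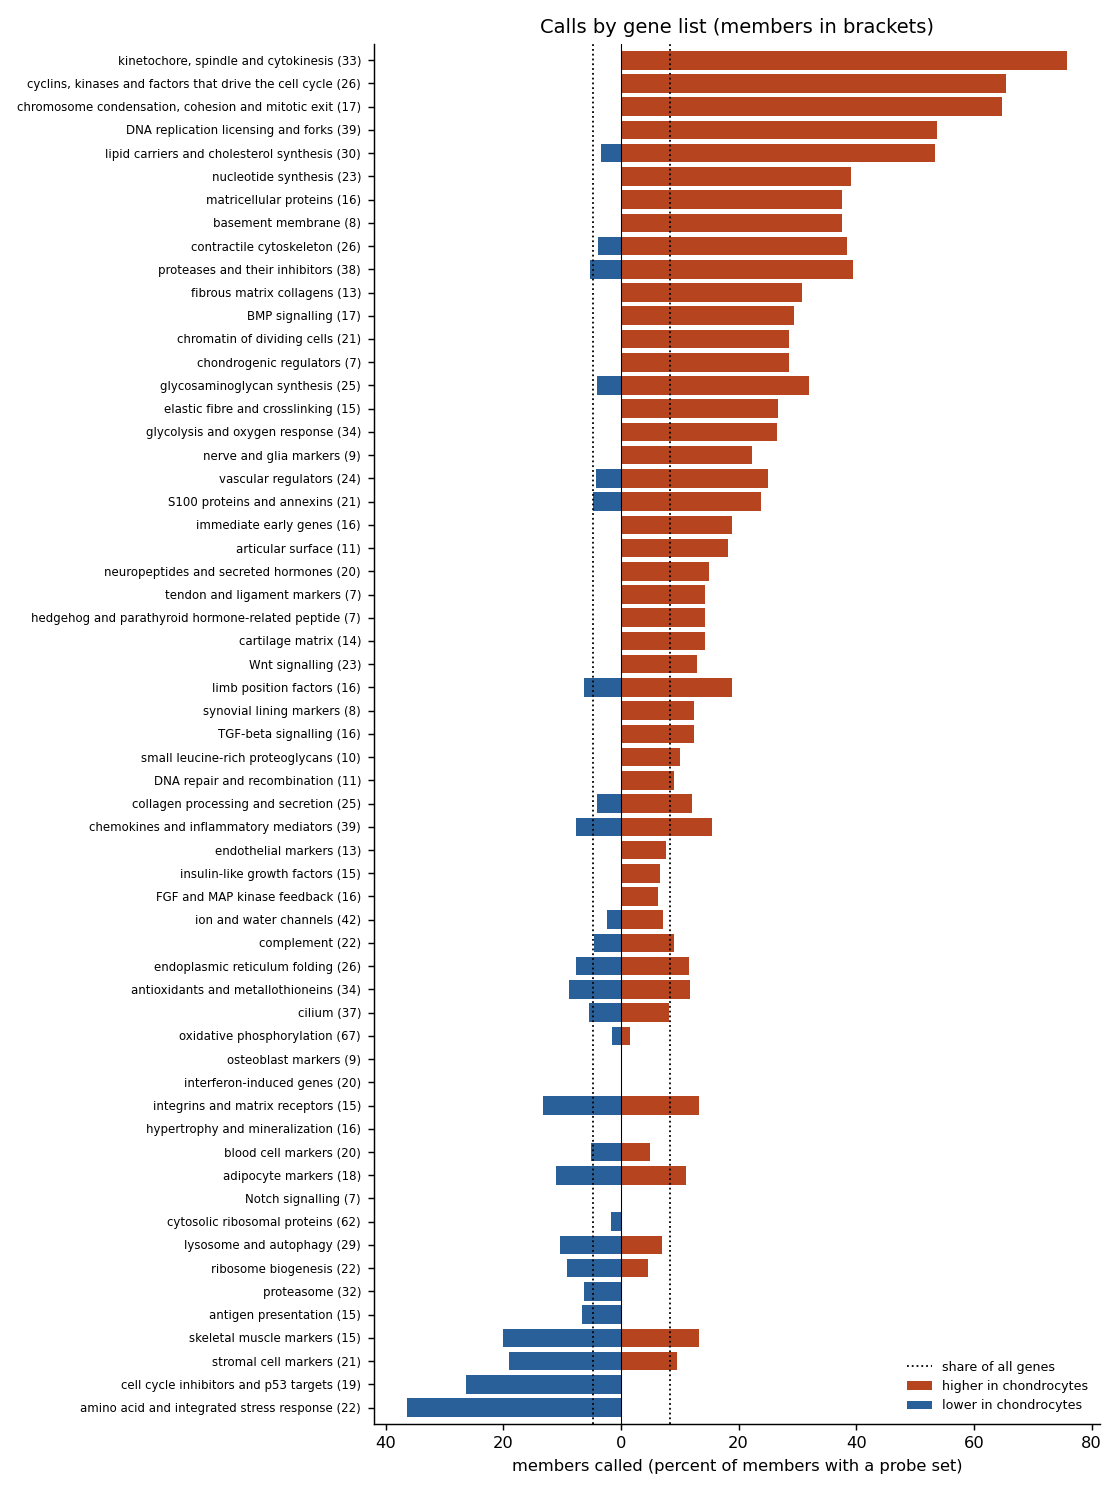
Share of the members of 59 gene lists called higher (red, to the right) or lower (blue, to the left) in chondrocytes, in percent of the members with a probe set, whose number is in brackets. Dotted lines mark the shares among all genes, 8.35% higher and 4.81% lower. Cell division and lipid lists lie at the top and the stress response list at the bottom.

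Further lists are set beside the shares among all genes, 8.35% higher and 4.81% lower. Higher shares were largest in S100 proteins and annexins (23.8%), immediate early genes (18.8%) and neuropeptides and secreted hormones (15%). Lower shares were largest in lysosome and autophagy genes (10.3%) and ribosome biogenesis (9.09%). Each of these shares rests on 5 calls or fewer. Of 21 S100 proteins and annexins 5 were higher and 1 lower, or 2 and 1 without the 2 arrays with low controls, of 16 immediate early genes 3 were higher, the transcription factors FOSB, FOSL1 and JUNB (median 0.65), and of 20 neuropeptides and secreted hormones 3 were higher, GAL, STC1 and CHGA, the last not called with the donor as a block (0.0621) or in 9 of 10 leave-out fits. The block raised the immediate early count to 5, the lower count of S100 proteins and annexins to 2, and the counts of the channels and of FGF feedback named next to 5 higher and 2 lower and to 2. Of 42 ion and water channels 3 were higher and 1 lower, and of 16 genes of FGF and MAP kinase feedback 1 was higher. Of 15 genes of insulin-like growth factors 1 was higher, the protease HTRA1 given above. No growth factor, receptor or binding protein of that list was called. Of 15 genes of antigen presentation 1 was lower (CTSS), and of 22 of ribosome biogenesis 1 was higher (0 with the block) and 2 lower. Of 67 genes of oxidative phosphorylation 1 was higher and 1 lower (0 and 2 with the block), of 32 proteasome genes 2 were lower, of 26 genes of folding in the endoplasmic reticulum 3 were higher and 2 lower, and of 29 lysosome and autophagy genes 2 and 3. Of 62 cytosolic ribosomal proteins RPS28 was called, at -0.78 ± 0.18 (up to 0.176 without donor 2), while 60 had values below 0. The median of that list was -0.14, and the sign turned to 0.03 with arrays centred on these genes themselves.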

How the data were processed

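RNA was extracted with trizol, primed with poly(T), amplified and hybridised to bovine arrays with 1 array per sample, per the labels' protocols, which can favour signal near the 3′ end. The submitters' processing notes name RMA for the deposited log2 values, with its version not given in the sources used here. RMA equalises intensity distributions, so that a shift of most transcripts cannot be seen. Of 24128 probe sets 112 controls were left out. Of the remaining 24016, 13292 had 1 gene symbol in the platform annotation, 86 several and 10638 none, and 13263 matched a RefSeq table (ARS-UCD2.0), with 0 symbols changed.

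The model had 1 coefficient per group over all 9 arrays (lmFit and eBayes of limma 3.58.1, run in R 4.3.3). On simulated data for this comparison 50 of 100 probe sets changed by 1 and 90 of 100 changed by 2 on the log2 scale were recovered, and 12 of 152 calls were false. The simulation changed only these of 24016 probe sets, with independent noise and no donor effect, while 2482 were called in the data. Its shares of recovered and false calls thus do not give those of the data. Donors pair the arrays, since each number is 1 animal. Deviations from group means correlated from 0.164 to 0.412 within donors at day 28, the highest being donor 3, both of whose arrays had low controls.

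Lists and comparisons were chosen with earlier results of these data known. Genes were named from the 20 largest differences each way, 4 members of each of 59 lists, called or not, with the smallest p, and the cartilage matrix, articular surface, hypertrophy, regulator and stromal lists, and not every gene so chosen is printed. Other called list members were named after their values had been seen. Alternatives were other scalings, filters, weights, blocks and representations of a gene, listed in the closing section. Promoter sequences were not analysed here.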

Additional observations from a re-analysis of the deposited data

How the results depend on the processing

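The count of probe sets called, 2482 (1506 higher and 976 lower), stayed within 1.5 times under cyclic loess, median centring, both filters on low signal, array weights, a trended and robust variance and the day 28 arrays alone, while centring on ribosomal protein genes left 574 lower. An adjusted p under 0.01 gave 1063 (765 and 298), and limma's treat against a difference of 1 gave 309 (280 and 29). Leaving out 1 array gave 1356 to 2598 in all, 942 to 1484 higher and 414 to 1114 lower, and leaving out a donor gave 747 to 1520, 588 to 951 and 148 to 569. Without the 2 arrays with low hybridisation controls 1895 were called, 1548 of them the same, and with these arrays as a block 3069. The replicate block (donor as a fixed term) gave 3110 calls, 1791 higher and 1319 lower, with 2357 shared, and 2131 on the day 28 arrays alone. Among 292 named genes the replicate block ended 4 calls and added 12, and no named gene reversed sign with a call in any alternative other than how a gene's probe sets were represented. There PRG4 moved from -0.01 to 5.0 as the mean of its sets and 7.88 by the set of largest SD, NOP56 from 0.75 to -0.38 and SQSTM1 from -0.61 to 0.06. The cause of these shifts was not tested. Promoter motifs were planned and were not run. With 3 arrays per group, small differences can stay undetected. In the simulation 50 of 100 2-fold changes were recovered, with far fewer probe sets changed than were called in the data.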
